A study of Mus musculus with 12 samples.

Results

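The 10 genes described here are the metallothioneins Mt1 and Mt2 and the oxidative stress genes Nfe2l2, Hmox1, Nqo1, Gclm, Gclc, Slc7a11, Txnrd1 and Srxn1. They were chosen by name, and every probe set whose only gene symbol in the platform annotation is one of these was taken. This gave 20 probe sets for 10 genes, of 34945 probe sets with 1 symbol for 18193 genes. Each gene is described by its brightest probe set unless another is named, and 9 of the 10 were bright enough to be tested. The members' genes lie on 5 chromosomes, and 4 of the 10 (Mt1, Mt2, Hmox1 and Nqo1) lie on chromosome 8.

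Total RNA was measured on 12 Affymetrix mouse arrays from differentiating embryonic stem cells, 3 arrays in each of 4 groups. CAG150 is a mouse embryonic stem cell line that the study's title describes as carrying expanded CAG repeats, the kind of repeat that is lengthened in Huntington's disease. HM1 is a mouse embryonic stem cell line widely used for gene targeting, and is the line against which CAG150 was set. The 4 groups were CAG150 at day 6, HM1 at day 6, CAG150 at day 4 and HM1 at day 4 of neuronal differentiation, which all cells underwent. There was 1 line of each kind, so that anything else that differs between the lines cannot be told apart from the repeat. The labels do not say whether the 3 replicates came from separate cultures, and the p-values therefore measure only the spread among these samples, which may be technical. The groups follow the sample titles, because the descriptions give HM1 at day 6 the earlier day and every day 6 sample the same replicate number.

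Metallothioneins are small proteins rich in cysteine that bind zinc and copper, and their genes are switched on by the zinc-sensing factor MTF1. The transcription factor NRF2, encoded by Nfe2l2, is held and marked for degradation by KEAP1. When oxidants or electrophiles modify KEAP1, NRF2 accumulates and drives genes for glutathione synthesis, the thioredoxin system and quinone reduction.

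Mt1, Mt2 and Nfe2l2 were lower in CAG150 than in HM1 cells at both days. Mt1 was 6.08-fold lower at day 6 and 3.15-fold lower at day 4, and Mt2 was 3.41-fold lower at day 6 and 3.06-fold lower at day 4. Nfe2l2 was 1.49-fold lower at day 6 and 2.02-fold lower at day 4. Of the 6 tested genes downstream of NRF2, Gclm was lower at day 6 and Txnrd1 at day 4 by their brightest probe sets, and Hmox1, Nqo1, Gclc and Srxn1 passed the test at neither day. The Txnrd1 call was lost, and its sign turned, with the mean of its probe sets. A dimmer Gclm probe set did not pass at day 6. Between day 4 and day 6 Gclm, Gclc, Hmox1 and Mt2 fell in both lines.

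**Figure D1:**
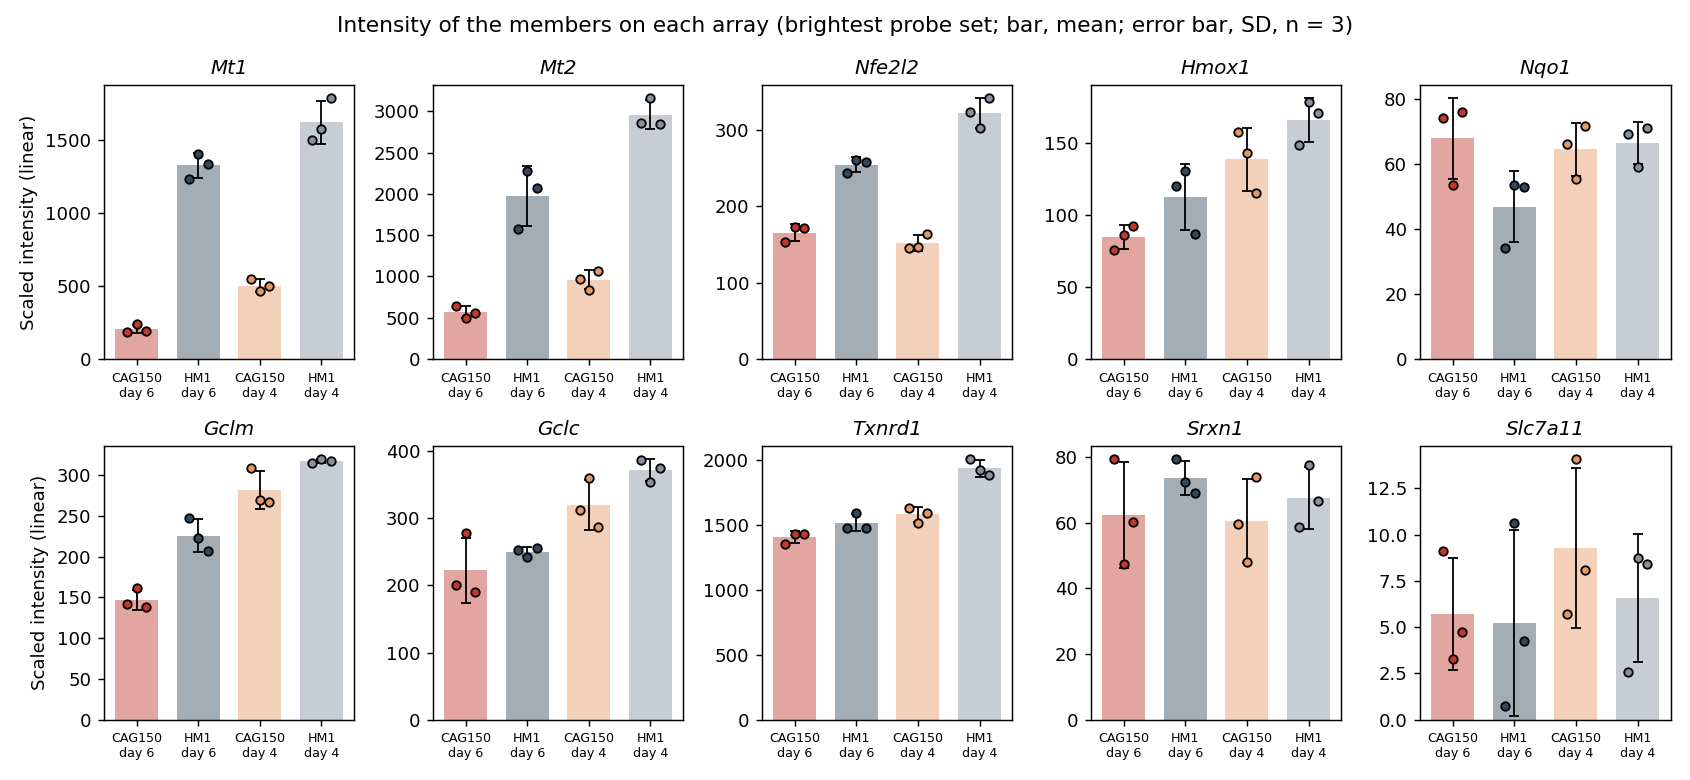
Deposited intensity (vertical axis, linear scale from 0) of the brightest probe set of each of the 10 genes, 1 panel per gene, in CAG150 day 6, HM1 day 6, CAG150 day 4 and HM1 day 4. Points are single arrays, bars group means and error bars the SD (n = 3); Mt1 lies between 184 and 238 in CAG150 at day 6 and between 1232 and 1404 in HM1 at day 6.

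Mt1 and Mt2 are neighbours on chromosome 8, with no other tested gene between them. The window around the start of each gene is shown because it holds several copies of the core of the metal response element that MTF1 binds. The sequences are those of RefSeq on GRCm38.p6, plus strand, from 250 bases before to 50 bases after the annotated start, at chr8:94178839-94179138 for Mt1 and chr8:94172368-94172667 for Mt2. RefSeq's gene table begins Mt1 at 94178883, which lies inside the Mt1 window but is not the start on which that window is set. Capitals mark matches to TGCACNC or TGCGCNC on either strand.
Mt1: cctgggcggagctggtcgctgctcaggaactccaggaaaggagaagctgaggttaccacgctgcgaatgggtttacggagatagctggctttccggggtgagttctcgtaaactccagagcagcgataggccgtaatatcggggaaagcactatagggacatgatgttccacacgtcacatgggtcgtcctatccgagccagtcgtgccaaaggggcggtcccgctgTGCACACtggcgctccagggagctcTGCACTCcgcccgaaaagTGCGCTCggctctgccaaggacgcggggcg
Mt2: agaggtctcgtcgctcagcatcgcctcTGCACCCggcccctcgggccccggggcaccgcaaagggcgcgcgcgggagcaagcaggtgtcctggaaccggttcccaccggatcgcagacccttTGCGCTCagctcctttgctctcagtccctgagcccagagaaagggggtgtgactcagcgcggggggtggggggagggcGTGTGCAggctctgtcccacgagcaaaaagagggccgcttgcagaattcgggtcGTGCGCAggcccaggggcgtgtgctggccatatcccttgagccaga
The Mt1 window held 3 matches and the Mt2 window 4. At least 1 match was found in 25.7% of 32851 such windows and 3 or more in 1.97%. A match is a run of letters and not a measured binding site.

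Windows were given for 8 of the 10 members, with 3 of them for Txnrd1. Beside Mt1 and Mt2, the metal core matched 3 times in the Gclm window and 1 time in that of Srxn1, and had no match in the windows of Nfe2l2, Nqo1, Slc7a11 and Txnrd1. The antioxidant response core TGACNNNGC, searched on both strands, is the sequence at which NRF2 and small MAF proteins bind. It matched 1 time each in the windows of Nfe2l2, Srxn1, Gclm and Mt2 and in 1 of the 3 windows of Txnrd1, against 12.4% of all windows with at least 1 match. None of its matches overlapped a metal core match in the Mt1 or Mt2 window.

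Mt1 had intensities of 184, 238 and 194 in CAG150 cells at day 6 (205 ± 28.8, SD, n = 3) and 1232, 1404 and 1337 in HM1 cells at day 6 (1324 ± 86.5). At day 4 it had 546, 463 and 499 in CAG150 cells (503 ± 41.7) and 1501, 1574 and 1786 in HM1 cells (1621 ± 148). All 6 CAG150 arrays lay below all 6 HM1 arrays, and no 2 of the 4 groups overlapped. The order of levels, low to high, was CAG150 at day 6, CAG150 at day 4, HM1 at day 6 and HM1 at day 4. The log2 difference of CAG150 minus HM1 was -2.60 ± 0.11 (SE) at day 6 (limma adjusted p = 1.47e-08), the 15th lowest of 12280 genes tested. At day 4 it was -1.66 ± 0.11 (adjusted p = 7.78e-07). Differences and folds are on the scale of log2(intensity + 16), which understates the change of dim genes. A further Mt1 probe set was too dim to be tested, with means of 9.01 in CAG150 and 14.1 in HM1 cells at day 6 and 7.52 in CAG150 and 10.1 in HM1 cells at day 4. With the mean over both probe sets in place of the brightest one, the log2 difference of Mt1 was -1.40 at day 6 and -0.91 at day 4, and both were still called.

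Mt2 had intensities of 641, 494 and 558 in CAG150 cells at day 6 (564 ± 73.5, SD, n = 3) and 1577, 2283 and 2066 in HM1 cells at day 6 (1975 ± 362). The day 4 arrays had 968, 838 and 1071 in CAG150 cells (959 ± 117) and 2863, 3162 and 2849 in HM1 cells (2958 ± 177). The groups did not overlap and stood in the same order as for Mt1. The log2 difference of CAG150 minus HM1 was -1.77 ± 0.14 at day 6 (adjusted p = 2.91e-06) and -1.61 ± 0.14 at day 4 (adjusted p = 9.87e-06). Over the 12 arrays the log2 intensities of Mt1 and Mt2 correlated with r = 0.97, a description in which the arrays share their groups.

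The metallothioneins also fell with time. In CAG150 cells Mt1 fell by 1.24 ± 0.11 on the log2 scale between day 4 and day 6 (adjusted p = 2.1e-06; by 0.57 with the mean of its probe sets) and Mt2 fell by 0.75 ± 0.14 (adjusted p = 0.000909). In HM1 cells Mt2 fell by 0.59 ± 0.14 (adjusted p = 0.00536). Mt1 in HM1 cells had a log2 difference of -0.29 ± 0.11 that did not pass (adjusted p = 0.0564), although its day 6 arrays all lay below its day 4 arrays. That adjusted p ranged over 0.013 (arrays centred on their medians) to 0.654 (mean of both probe sets) across the alternatives, and passed in 6 of them. On the log2 scale the decrease of Mt1 was larger in CAG150 than in HM1 cells, with an interaction of -0.95 ± 0.16 (adjusted p = 0.00503). On the linear scale it was similar in both lines, with means going from 503 to 205 in CAG150 and from 1621 to 1324 in HM1 cells. With the mean of both Mt1 probe sets the interaction was -0.49 and no longer passed (adjusted p = 0.196). For Mt2 the interaction was -0.16 ± 0.20 (adjusted p = 0.777).

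Some markers of several other kinds of cell were also lower in CAG150 than in HM1 cultures. The summed intensity of 6 fibroblast and smooth muscle markers, 5 of them above the brightness filter and Pdgfrb below it, ranged over 218 to 251 in CAG150 cells at day 6 and 4448 to 5394 in HM1 cells at day 6. At day 4 the sum ranged over 322 to 387 in CAG150 cells and 2878 to 3408 in HM1 cells. Of the 5 tested, 4 were lower at day 6 and 3 at day 4. The contractile genes Acta2 and Tagln made up most of the sum, with means of 162 (Acta2) and 38.2 (Tagln) in CAG150 and 2890 and 1762 in HM1 cells at day 6. Col1a1 passed at neither day, with means of 13.8 in CAG150 and 9.53 in HM1 cells at day 4, and the dim Pdgfrb had 18.5 in CAG150 and 18.2 in HM1 cells at day 4. The sum of 6 pluripotency markers, all above the filter, ranged over 879 to 943 in CAG150 and 2086 to 2399 in HM1 cells at day 6, and over 479 to 526 in CAG150 and 1444 to 1631 in HM1 cells at day 4. Of these 5 of 6 were lower at each day. The sum of 6 visceral endoderm markers, with Afp, Ttr and Apoa1 below the filter, ranged over 103 to 119 in CAG150 and 169 to 201 in HM1 cells at day 6, and over 39.0 to 49.1 in CAG150 and 42.8 to 83.8 in HM1 cells at day 4. These visceral endoderm sums overlapped between the lines at day 4. Of the 3 tested genes of this list Foxa2 (-0.79, adjusted p = 0.00185) and Sox17 (-0.56, adjusted p = 0.0274) were lower at day 6 and Foxa2 at day 4 (-0.56, adjusted p = 0.018). Cubn passed at neither day (limma adjusted p = 0.0673 at day 6 and 0.174 at day 4). The dim Afp, Apoa1 and Ttr had day 6 means of 5.61, 3.31 and 17.4 in CAG150 and 5.30, 2.36 and 19.4 in HM1 cells. The sum of 6 macrophage markers, with Adgre1, Ptprc, Tyrobp and Aif1 below the filter, ranged over 68.7 to 74.9 in CAG150 and 57.6 to 82.0 in HM1 cells at day 6, and over 58.0 to 89.2 in CAG150 and 65.1 to 84.0 in HM1 cells at day 4. These macrophage sums overlapped between the lines at both days. Cd68, 1 of its 2 tested genes, was lower at day 6 (-0.38, adjusted p = 0.0205) and at day 4 (-0.41, adjusted p = 0.0166). The other one, Csf1r, did not pass and had log2 differences above 0, of 0.395 at day 6 (adjusted p = 0.168) and 0.014 at day 4 (adjusted p = 0.975). The part of these kinds of cell in the lower metallothionein values was not tested. In bulk RNA such as this, fewer cells of a type and less RNA per cell cannot be told apart.

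The cultures carried the labelled tissue's markers. The sum of 6 neural progenitor markers ranged over 14189 to 14550 in CAG150 and 12445 to 13037 in HM1 cells at day 6, and over 7573 to 7810 in CAG150 and 5805 to 6760 in HM1 cells at day 4. Of these 6 markers 0 were higher and 1 lower in CAG150 cells at day 6, Pax6 (-0.405, limma adjusted p = 0.00676). Fabp7 (means of 6688 in CAG150 and 5413 in HM1 cells) and Hes5 (3122 in CAG150 and 2360 in HM1 cells) did not pass at day 6. At day 4 these 2 were higher and 0 markers were lower. The sum of 6 neuron markers ranged over 8667 to 9634 in CAG150 and 5730 to 6819 in HM1 cells at day 6, and over 1494 to 1761 in CAG150 and 2813 to 3095 in HM1 cells at day 4. Of the 6 neuron markers 5 were higher and 0 lower in CAG150 cells at day 6, and 3 were higher and 1 lower at day 4. The lower one was Stmn2, with means of 607 in CAG150 and 2108 in HM1 cells at day 4, which set the order of the sums at that day. Glial markers other than Mbp were dim, with Gfap, S100b and Olig1 below the filter, and the sums were 174 to 273 over all arrays. Mbp made up most of the sum, with means of 187 in CAG150 and 139 in HM1 cells at day 6. It was higher in CAG150 cells at day 6 (0.397, limma adjusted p = 0.0227) and did not pass at day 4 (0.007, adjusted p = 0.977). The median intensity of an array ranged over 19.2 to 25.9, and no array date or batch is given. Of the 12280 genes tested, 1243 were higher and 1381 lower in CAG150 than in HM1 cells at day 6, and 967 were higher and 973 lower at day 4. With arrays centred on their medians these were 811 higher and 1617 lower at day 6 and 534 higher and 1165 lower at day 4. Centring on genes outside chromosomes 8, 11 and Y turned the balance the other way. It gave 1542 higher and 1159 lower at day 6, and 1216 higher and 845 lower at day 4.

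Nfe2l2 encodes NRF2. It had intensities of 153, 172 and 171 in CAG150 cells at day 6 (165 ± 10.8, SD, n = 3) and 243, 261 and 258 in HM1 cells at day 6 (254 ± 9.68). At day 4 it had 145, 146 and 164 in CAG150 cells (152 ± 10.5) and 322, 303 and 341 in HM1 cells (322 ± 19.3). Every CAG150 array lay below every HM1 array. In the order of levels CAG150 at day 4 and at day 6 overlapped, and HM1 at day 6 and at day 4 stood above them and apart from each other. The log2 difference of CAG150 minus HM1 was -0.57 ± 0.08 at day 6 (adjusted p = 0.000417) and -1.01 ± 0.08 at day 4 (adjusted p = 6.28e-06). Between day 4 and day 6 Nfe2l2 fell by 0.32 ± 0.08 in HM1 cells (adjusted p = 0.00907). In CAG150 cells the log2 difference of day 6 minus day 4 was 0.11 ± 0.08 (adjusted p = 0.304). The interaction of 0.44 ± 0.12 did not pass (adjusted p = 0.0679), but passed at 0.0471 when only genes above the 60th percentile were kept and at 0.0463 with a pseudocount of 64. The further Nfe2l2 probe set was too dim to be tested, and with the mean of both the line difference at day 6 was -0.34 (adjusted p = 0.0487).

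Gclm and Gclc encode the modifier and the catalytic subunit of glutamate-cysteine ligase, which makes the dipeptide precursor of glutathione. Gclm had intensities of 142, 161 and 138 in CAG150 cells at day 6 (147 ± 12.4, SD, n = 3) and 248, 223 and 207 in HM1 cells at day 6 (226 ± 20.7). Its day 4 values were 309, 269 and 267 in CAG150 cells (282 ± 23.8) and 314, 320 and 317 in HM1 cells (317 ± 2.92). The groups did not overlap, with CAG150 at day 6 lowest and HM1 at day 4 highest. Gclm was 1.48-fold lower in CAG150 cells at day 6, a log2 difference of -0.57 ± 0.09 (adjusted p = 0.000959). At day 4 the difference of -0.16 ± 0.09 did not pass (adjusted p = 0.262). From day 4 to day 6 Gclm fell by 0.87 ± 0.09 in CAG150 cells (adjusted p = 1.07e-05) and fell by 0.47 ± 0.09 in HM1 cells (adjusted p = 0.00178), and the interaction did not pass (adjusted p = 0.132).

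A dimmer Gclm probe set did not give the same line difference. In a fit across 23082 probe sets its log2 difference of CAG150 minus HM1 was -0.08 ± 0.11 at day 6 (adjusted p = 0.672) and -0.35 ± 0.11 at day 4 (adjusted p = 0.0568). With the mean of both probe sets the line difference of Gclm was -0.32 at day 6 (adjusted p = 0.00842) and -0.26 at day 4 (adjusted p = 0.0384). The dimmer probe set fell with time in both lines, by 0.32 in CAG150 cells (adjusted p = 0.036) and by 0.58 in HM1 cells (adjusted p = 0.00143). In these probe set fits 16% of all probe sets passed for the line at day 6, 11.7% for the line at day 4, 36% for the day in CAG150 cells and 30.3% for the day in HM1 cells.

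Gclc had intensities of 200, 277 and 190 in CAG150 cells at day 6 (222 ± 47.9, SD, n = 3) and 253, 242 and 256 in HM1 cells at day 6 (250 ± 7.24). At day 4 it had 313, 360 and 287 in CAG150 cells (320 ± 37.1) and 386, 353 and 375 in HM1 cells (372 ± 16.9). The lines overlapped at both days, while within each line all day 6 arrays lay below all day 4 arrays. Gclc fell by 0.51 ± 0.13 between the days in CAG150 cells (adjusted p = 0.00573) and fell by 0.54 ± 0.13 in HM1 cells (adjusted p = 0.0047). The line differences of -0.18 ± 0.13 at day 6 (adjusted p = 0.357) and -0.21 ± 0.13 at day 4 (adjusted p = 0.289) did not pass. The array of CAG150 at day 6 with 277 decided the day 6 result, since without it the difference was -0.34 (adjusted p = 0.0428). The further Gclc probe set also fell with time, by 0.56 in CAG150 cells (adjusted p = 0.00513) and by 0.45 in HM1 cells (adjusted p = 0.0219).

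Slc7a11 encodes the cystine and glutamate exchanger that brings in cystine for glutathione. It was near the bottom of the scale, with 9.12, 3.30 and 4.74 in CAG150 cells at day 6 and 0.741, 10.6 and 4.28 in HM1 cells at day 6. At the earlier day it had 5.70, 14.1 and 8.07 in CAG150 cells and 2.56, 8.74 and 8.40 in HM1 cells. All groups overlapped. Both probe sets were below the filter at an intensity of 11.9, so that Slc7a11 was not tested. In a fit with no filter its log2 difference of CAG150 minus HM1 was 0.05 ± 0.19 at day 6 (adjusted p = 0.911) and 0.16 ± 0.19 at day 4 (adjusted p = 0.682).

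Hmox1 encodes heme oxygenase 1, which breaks heme into iron, carbon monoxide and biliverdin and is induced by oxidants and heme. It had intensities of 75.8, 86.0 and 92.0 in CAG150 cells at day 6 (84.6 ± 8.22, SD, n = 3) and 120, 131 and 86.9 in HM1 cells at day 6 (112 ± 22.8). At day 4 it had 158, 143 and 115 in CAG150 cells (138 ± 21.8) and 148, 178 and 170 in HM1 cells (166 ± 15.4). The lines overlapped at both days. Hmox1 fell with time by 0.61 ± 0.14 in CAG150 cells (adjusted p = 0.00362) and by 0.51 ± 0.14 in HM1 cells (adjusted p = 0.0123). The line differences of -0.34 ± 0.14 at day 6 (adjusted p = 0.111) and -0.24 ± 0.14 at day 4 (adjusted p = 0.283) did not pass. The HM1 day 6 array with 86.9 decided both the line and the day result. Without it the line difference at day 6 was -0.49 (adjusted p = 0.0246) and the day difference in HM1 cells was -0.36 (adjusted p = 0.0524).

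Nqo1 encodes a quinone reductase that is among the best known targets of NRF2. It had intensities of 74.0, 53.4 and 75.8 in CAG150 cells at day 6 (67.8 ± 12.4, SD, n = 3) and 34.2, 53.3 and 52.8 in HM1 cells at day 6 (46.8 ± 10.9). Day 4 intensities were 66.2, 55.3 and 71.6 in CAG150 cells (64.4 ± 8.28) and 69.2, 59.0 and 71.1 in HM1 cells (66.4 ± 6.51). HM1 at day 6 was the lowest group. The lowest CAG150 array at day 6, at 53.4, lay just above the highest HM1 array, at 53.3. The log2 difference of CAG150 minus HM1 was 0.42 ± 0.15 at day 6 (adjusted p = 0.0592, 95% interval 0.103 to 0.736) and -0.04 ± 0.15 at day 4 (adjusted p = 0.898). The day 6 value passed with arrays centred on genes outside chromosomes 8, 11 and Y (adjusted p = 0.039), with the filter at the 60th percentile (0.04) and without the CAG150 array at 53.4 (0.55, adjusted p = 0.0244). Nqo1 fell by 0.40 ± 0.15 with time in HM1 cells (adjusted p = 0.0436), and this call was lost without the HM1 day 6 array at 34.2 (-0.25, adjusted p = 0.186), without the HM1 day 4 array at 69.2 (adjusted p = 0.105) or at 71.1 (0.117), without the CAG150 day 4 array at 66.2 (0.0544), with no filter (0.0719), with a pseudocount of 1 (0.056) and with only the HM1 groups in the fit (0.055). In CAG150 cells the day difference was 0.05 ± 0.15 (adjusted p = 0.793).

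Txnrd1 encodes the cytosolic thioredoxin reductase, which returns thioredoxin to its reduced form with NADPH. It had intensities of 1352, 1433 and 1432 in CAG150 cells at day 6 (1406 ± 46.5, SD, n = 3) and 1479, 1592 and 1478 in HM1 cells at day 6 (1516 ± 65.4). At day 4 it had 1633, 1516 and 1596 in CAG150 cells (1582 ± 59.9) and 2010, 1921 and 1882 in HM1 cells (1938 ± 65.5). HM1 at day 4 stood above the other 3 groups, and HM1 at day 6 and CAG150 at day 4 overlapped. Txnrd1 was 1.22-fold lower in CAG150 cells at day 4, a log2 difference of -0.29 ± 0.08 (adjusted p = 0.0204). At day 6 the difference of -0.11 ± 0.08 did not pass (adjusted p = 0.348), although the groups did not overlap. Txnrd1 fell by 0.35 ± 0.08 with time in HM1 cells (adjusted p = 0.00278), and its difference in CAG150 cells was -0.17 ± 0.08 (adjusted p = 0.0873). The CAG150 value passed with arrays centred on their medians (adjusted p = 0.0182) or on genes outside chromosomes 8, 11 and Y (0.0324), with the mean of its probe sets (0.0353) and with a trended prior (0.0468).

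The line difference of Txnrd1 depended on the probe set. The other probe sets had log2 differences of 0.25 ± 0.15 (adjusted p = 0.326) and 0.45 ± 0.17 (adjusted p = 0.106) at day 4, opposite in sign to the brightest one. With the mean of the 3 probe sets the day 4 value was 0.14 (adjusted p = 0.422) and the day value in HM1 cells was -0.06 (adjusted p = 0.678). The day 4 call of Txnrd1 was also lost with quantile normalization (adjusted p = 0.0512), with only the 2 day 4 groups in the fit (0.0645), without CAG150 day 4 replicate 2 (0.0793) and without HM1 day 4 replicate 1 (0.0638).

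Srxn1 encodes sulfiredoxin, which restores overoxidized peroxiredoxins. It had intensities of 79.5, 47.6 and 60.2 in CAG150 cells at day 6 (62.4 ± 16.1, SD, n = 3) and 79.4, 72.4 and 69.2 in HM1 cells at day 6 (73.6 ± 5.23). On the day 4 arrays it had 59.8, 48.2 and 73.8 in CAG150 cells (60.6 ± 12.8) and 58.6, 77.4 and 66.6 in HM1 cells (67.6 ± 9.45). All groups overlapped, and Srxn1 passed in no comparison. Its log2 differences of CAG150 minus HM1 were -0.21 ± 0.16 at day 6 (adjusted p = 0.368) and -0.13 ± 0.16 at day 4 (adjusted p = 0.606). Of its 4 probe sets 3 were above the filter, and 1 of these had a higher value at day 6 than at day 4 in HM1 cells (0.39 ± 0.13, adjusted p = 0.0425).

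**Figure D2:**
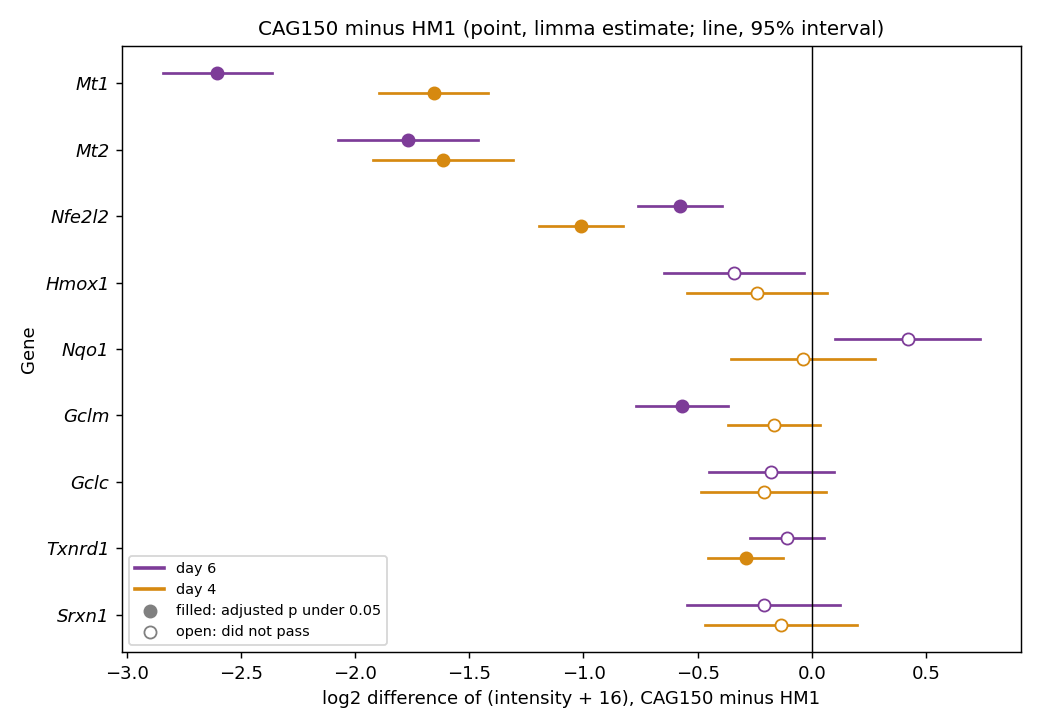
Log2 difference of CAG150 minus HM1 (horizontal axis) for the 9 tested genes at day 6 and day 4, with limma's 95% interval as a line. Filled points passed at an adjusted p under 0.05; Mt1, Mt2 and Nfe2l2 lie left of 0 and are filled at both days, and Nqo1 at day 6, an open point, is the only one to the right of 0, at 0.42.

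Set side by side, 4 of the 9 tested members were lower and 0 higher in CAG150 than in HM1 cells at day 6 (Mt1, Mt2, Nfe2l2 and Gclm), where 21.4% of all 12280 genes passed in either direction and 11.2% were lower. At day 4 again 4 were lower and 0 higher (Mt1, Mt2, Nfe2l2 and Txnrd1), where 15.8% of all genes passed and 7.92% were lower. Across the alternatives 4 to 6 members were called at day 6 and 3 to 4 at day 4. The median log2 difference over the 9 was -0.34 at day 6 and -0.24 at day 4, against -0.002 at day 6 and 0.005 at day 4 over all genes. All CAG150 arrays lay below all HM1 arrays for 5 of the 9 at day 6, against 19.8% of all genes, and for 5 at day 4, against 17.1% of all genes.

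In CAG150 cells 5 of the 9 fell between day 4 and day 6 and 0 rose (Mt1, Mt2, Gclm, Hmox1 and Gclc), where 44.4% of all genes passed and 21.9% fell. In HM1 cells 7 fell and 0 rose (Mt2, Gclm, Gclc, Hmox1, Txnrd1, Nfe2l2 and Nqo1), where 38.9% of all genes passed and 18.5% fell. All day 6 arrays lay below all day 4 arrays for 6 of the 9 in CAG150 cells, against 27.6% of all genes, and for 8 in HM1 cells, against 24.3% of all genes. The median difference over the 9 was -0.51 in CAG150 cells and -0.41 in HM1 cells, against 0 and -0.004 over all genes. Each day comparison shares its arrays with the line comparisons, so their values are not independent of each other. For the day comparison, centring arrays on their medians moved the calls to 1974 higher and 3474 lower in CAG150 cells, against 2760 higher and 2693 lower without it. In HM1 cells they moved to 1750 higher and 3085 lower, against 2500 higher and 2273 lower, and to 2061 higher and 2877 lower with centring on genes outside chromosomes 8, 11 and Y. Centring on medians moved the median of all genes in HM1 cells to -0.11. It subtracts the same amount from every gene, so that differences relative to that median are those of the uncentred values. The line and day interaction passed for 1 of the 9, Mt1, where 3.61% of all genes passed.

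**Figure D3:**
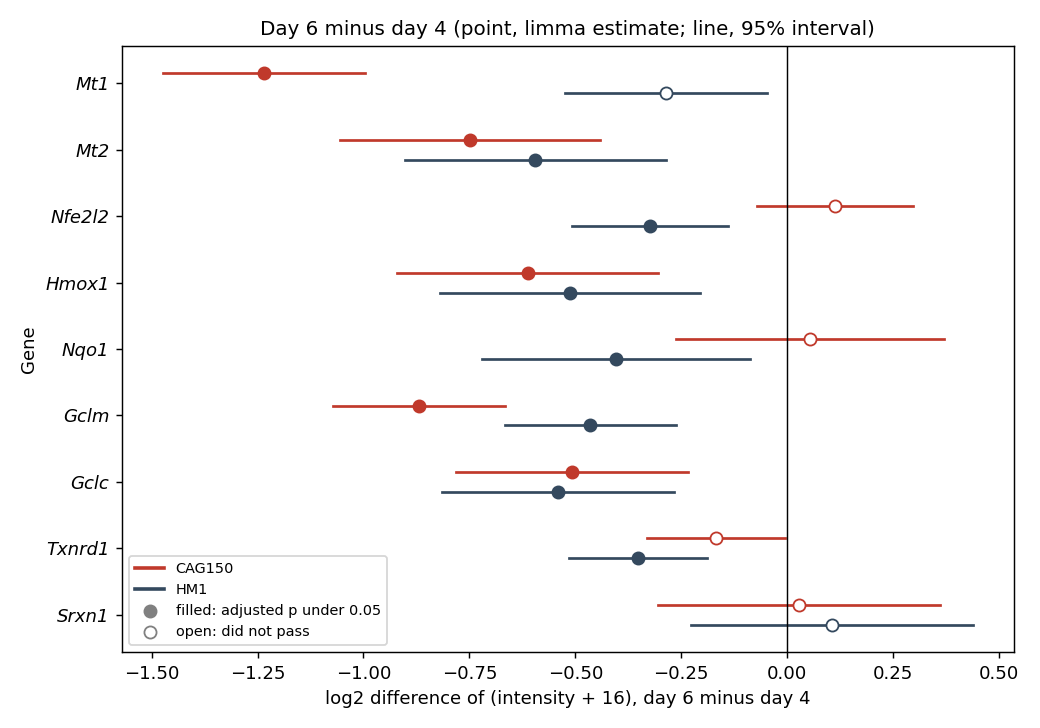
Log2 difference of day 6 minus day 4 (horizontal axis) for the 9 tested genes in CAG150 and HM1 cells, with limma's 95% interval as a line. Filled points passed at an adjusted p under 0.05; Mt1 in CAG150 cells lies farthest left at -1.24, and its point in HM1 cells at -0.29 is open.

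Chromosome 8, which carries 4 of the members, was shifted the other way. Its 671 tested genes had a median log2 difference of CAG150 minus HM1 of 0.24 at day 6, with 231 higher and 36 lower, and of 0.20 at day 4, with 150 higher and 18 lower. Mt1 and Mt2 were the lowest and next lowest of the 671 at day 6, and ranked 3 and 5 from the lowest at day 4. Hmox1 ranked 44 from the lowest at day 6 and 48 at day 4. Nqo1 ranked 530 at day 6, and its log2 difference of 0.42 there stood against the chromosome's 0.24. The part of this shift in the difference of Nqo1 was not tested. A like shift was seen on chromosome 11, which carries no member and had 1007 tested genes. Its median was 0.23 at day 6, with 320 higher and 46 lower, and 0.17 at day 4, with 215 higher and 33 lower. Chromosomes 2, 3, 9 and 10, which carry the other members, had medians between -0.064 and 0 at both days.

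The 10 tested genes next to Mt1 and Mt2, 5 on each side, were chosen after their values were seen. At day 6 5 of them were higher and 1 lower in CAG150 cells, with a median log2 difference of 0.21. The lower one was Mt3, a metallothionein best known from the brain. At day 4 0 of the 10 passed in either direction by limma and 5 had an unadjusted p under 0.05, and their values ranged over -0.47 to 0.31.

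**Figure D4:**
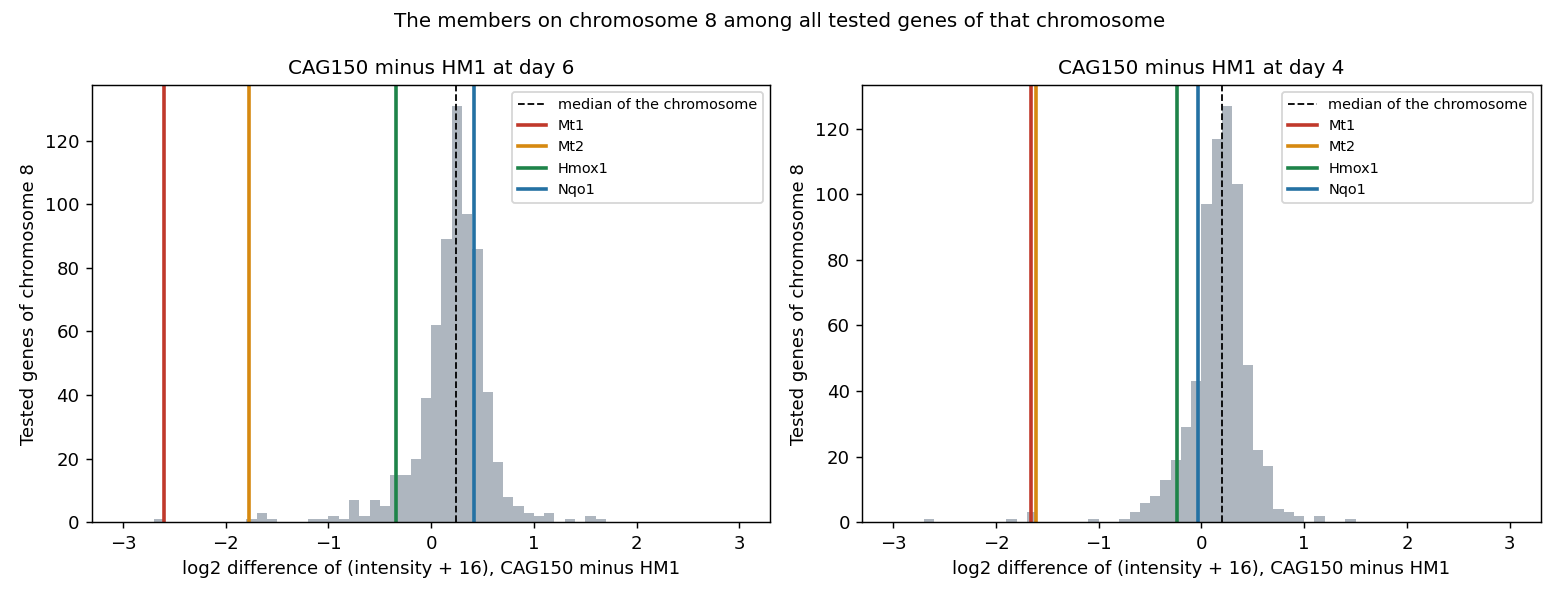
Histograms of the log2 difference of CAG150 minus HM1 (horizontal axis) over the 671 tested genes of chromosome 8 (vertical axis, number of genes), at day 6 on the left and day 4 on the right. Dashed lines are the chromosome's medians, 0.24 at day 6 and 0.20 at day 4, and coloured lines the 4 members; Mt1 and Mt2 lie far left of the bulk in both panels.

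Beyond the members, 83 genes of 7 related pathways were listed, of which 74 were tested. At day 6 4 of them were higher and 20 lower in CAG150 cells, and at day 4 4 were higher and 12 lower, with median log2 differences of -0.13 at day 6 and -0.07 at day 4. Over all genes 21.4% passed and 11.2% were lower at day 6, and 15.8% passed and 7.92% were lower at day 4. Between the days 13 rose and 24 fell in CAG150 cells, where 44.4% of all genes passed and 21.9% fell, and 15 rose and 18 fell in HM1 cells, where 38.9% passed and 18.5% fell. The counts of the single lists below stand against these shares of all genes, and several lie near them.

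The list of metal and zinc genes (10 of 11 tested) had 2 lower and 0 higher at day 6 and 0 in either direction at day 4 by limma, with Mt3 having the smallest unadjusted p there at 0.0496. Mt3 had means of 33.4 ± 3.40 in CAG150 and 137 ± 55.7 in HM1 cells at day 6 (SD, n = 3 each), and 48.0 ± 7.33 in CAG150 and 72.5 ± 5.48 in HM1 cells at day 4. Its log2 difference was -1.56 ± 0.22 at day 6 (adjusted p = 0.000278), and -0.47 ± 0.22 at day 4 (adjusted p = 0.167). Mt3 rose by 0.72 with time in HM1 cells (adjusted p = 0.0193), the opposite of Mt2, which fell there. Slc39a10, a zinc importer, was lower at day 6 (-0.24, adjusted p = 0.0329). Between the days 2 genes of the list rose and 3 fell in CAG150 cells, where 44.4% of all genes passed. In HM1 cells 3 rose and 1 fell, where 38.9% of all genes passed.

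Of the regulators of NRF2 (9 of 10 tested), 0 were higher and 2 lower at day 6 and 0 higher and 1 lower at day 4. Those lower were Mafk and Maff at day 6 and Maff at day 4, of the 3 small MAF proteins with which NRF2 pairs on DNA. Mafg, the other one, had log2 differences of 0.24 at day 6 (adjusted p = 0.159) and -0.008 at day 4 (adjusted p = 0.975). Mafk had means of 41.1 in CAG150 and 69.8 in HM1 cells at day 6 (log2 difference -0.61, adjusted p = 0.0112), and its difference at day 4 did not pass (-0.33, adjusted p = 0.151). Maff was dim, with 14.9 in CAG150 and 29.5 in HM1 cells at day 6 (-0.57, adjusted p = 0.0406) and 16.8 in CAG150 and 36.9 in HM1 cells at day 4 (-0.69, adjusted p = 0.0208). Keap1 had log2 line differences of -0.22 at day 6 (adjusted p = 0.148) and -0.11 at day 4 (adjusted p = 0.498). With time 3 of the 9 rose and 1 fell in each line, near the share of all genes that passed, 44.4% in CAG150 and 38.9% in HM1 cells. Keap1 rose by 0.33 in CAG150 cells (adjusted p = 0.0165) and by 0.44 in HM1 cells (adjusted p = 0.00403), and Bach1, a repressor at NRF2's sites, rose by 0.55 in CAG150 cells (adjusted p = 0.000137) and by 0.47 in HM1 cells (adjusted p = 0.00059).

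All 21 glutathione genes were tested. At day 6 3 were higher and 9 lower in CAG150 cells, and at day 4 4 were higher and 3 lower. Gsta4, a glutathione transferase acting on lipid aldehydes, had means of 677 ± 66.9 in CAG150 and 1533 ± 101 in HM1 cells at day 6 (SD, n = 3 each), and 1942 ± 26.6 in CAG150 and 3076 ± 313 in HM1 cells at day 4. It was 2.24-fold lower in CAG150 cells at day 6 (adjusted p = 4.62e-06) and 1.57-fold lower at day 4 (adjusted p = 0.000706). Mgst1, a membrane-bound transferase, went the other way, with means of 573 ± 98.6 in CAG150 and 341 ± 25.8 in HM1 cells at day 6 and 698 ± 71.3 in CAG150 and 383 ± 36.0 in HM1 cells at day 4. Its log2 differences were 0.71 (adjusted p = 0.00179) and 0.84 (adjusted p = 0.000816). Gstm1 was lower at both days (-0.88 at day 6, adjusted p = 0.00236, and -0.69 at day 4, adjusted p = 0.0135).

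Chac1, an enzyme that breaks down glutathione, had means of 72.2 ± 4.24 in CAG150 and 137 ± 10.6 in HM1 cells at day 6 (SD, n = 3 each), and 359 ± 53.5 in CAG150 and 263 ± 5.43 in HM1 cells at day 4. Its line difference turned between the days, at -0.80 at day 6 (adjusted p = 0.000176) and 0.42 at day 4 (adjusted p = 0.017). Between the days 4 of the 21 genes rose and 13 fell in CAG150 cells, and 4 rose and 10 fell in HM1 cells. Chac1 fell by 2.08 in CAG150 cells (adjusted p = 1.62e-08) and by 0.86 in HM1 cells (adjusted p = 3.93e-05). Gpx7, a peroxidase of the endoplasmic reticulum, fell by 1.501 in CAG150 cells (adjusted p = 2.41e-06) and by 1.27 in HM1 cells (adjusted p = 1.38e-05).

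The thioredoxin and peroxiredoxin list (11 of 14 tested) had 0 higher and 2 lower at each day, where 21.4% of all genes passed at day 6 and 15.8% at day 4. Txn1, thioredoxin itself, had means of 4253 ± 153 in CAG150 and 5236 ± 165 in HM1 cells at day 6 (SD, n = 3 each; log2 difference -0.30, adjusted p = 0.0202) and 5532 ± 165 in CAG150 and 6666 ± 541 in HM1 cells at day 4 (-0.27, adjusted p = 0.0437). Sesn2, a stress-induced sestrin, was lower at day 6 (-0.52, adjusted p = 0.00153). Txnip, which binds and inhibits thioredoxin, was lower at day 4 (-0.50, adjusted p = 0.0246) and rose with time by 1.01 in CAG150 cells (adjusted p = 6.93e-05) and by 0.78 in HM1 cells (adjusted p = 0.000687). With time 2 of the list rose and 2 fell in CAG150 cells, and 2 rose and 1 fell in HM1 cells.

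Of the superoxide and peroxide genes (5 of 6 tested) 1 was lower and 0 higher at each day, Ccs, the copper chaperone of superoxide dismutase (-0.32 at day 6, adjusted p = 0.0214, and -0.39 at day 4, adjusted p = 0.0104). With time 1 fell in each line, Park7 (-0.43 in CAG150 cells, adjusted p = 0.00167, and -0.39 in HM1 cells, adjusted p = 0.00428). Of the NADPH and detoxification genes (11 of 13 tested) 1 was higher and 2 lower at day 6, and 0 were higher and 2 lower at day 4. Abcc4, an exporter of organic anions, was lower at day 6 (-0.76, adjusted p = 0.00165), and Me1, malic enzyme, at day 4 (-0.57, adjusted p = 0.00141). Of this list 1 rose and 3 fell with time in CAG150 cells, and 2 rose and 4 fell in HM1 cells.

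The heme and iron list (7 of 8 tested) had 2 lower and 0 higher at day 6 and 3 lower and 0 higher at day 4. Fth1, ferritin heavy chain, had means of 2772 ± 128 in CAG150 and 3785 ± 212 in HM1 cells at day 6 (SD, n = 3 each; log2 difference -0.45, adjusted p = 0.00556) and 3310 ± 201 in CAG150 and 4210 ± 489 in HM1 cells at day 4 (-0.34, adjusted p = 0.03). Slc40a1, the iron exporter ferroportin, was lower at day 6 (-0.87, adjusted p = 0.000458). Blvrb, a biliverdin reductase downstream of heme oxygenase (-0.61, adjusted p = 0.00493), and Tfrc, the transferrin receptor (-0.49, adjusted p = 0.00407), were lower at day 4. With time 1 of the list rose and 1 fell in CAG150 cells, and 1 rose and 0 fell in HM1 cells. Of the listed genes not tested, Mt4, Nfe2l3, Sod3 and Osgin1 were below the filter, and Prdx1, Prdx5, Prdx6, G6pdx and Ftl1 had no probe set with a single symbol here.

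**Figure D5:**
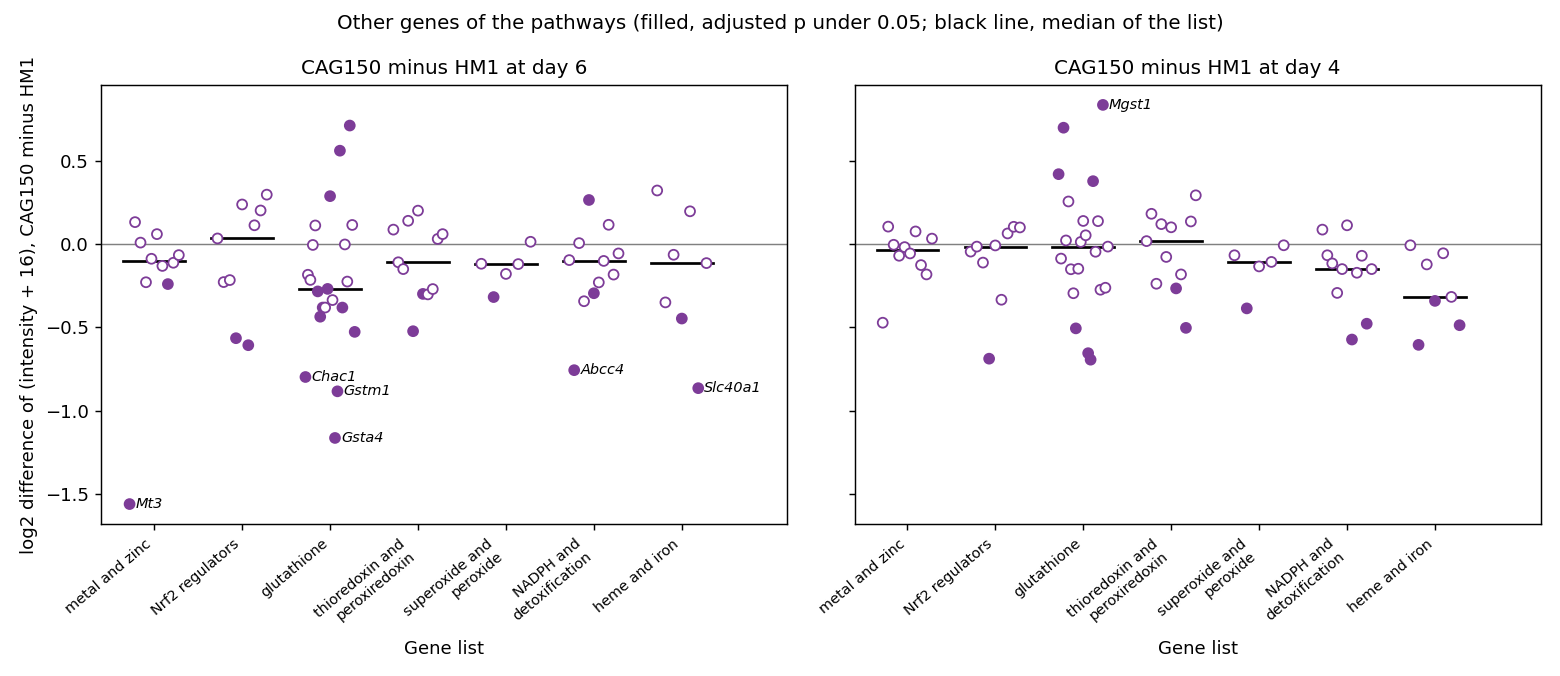
Log2 difference of CAG150 minus HM1 (vertical axis) for the tested genes of the 7 related lists at day 6 on the left and day 4 on the right, 1 point per gene, with a black line at each list's median. Filled points passed at an adjusted p under 0.05; at day 6 the glutathione list runs between Gsta4 at -1.16 and Mgst1 at 0.71.

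The genes whose log2 intensities over the 12 arrays were most like a member's were named by Pearson's r, for the 4 members with the widest range of group means. All 12 arrays share the same 4 groups, so a high r describes a shared order of groups. For Mt1 they were Myh9 (0.99), Myl9 (0.99) and Cnn2 (0.99). For Mt2 they were Ifitm3, Gdf3 and Myl12a (0.98 each). For Gclm they were Plcd4, Ddx4 and Lactb2 (0.98 each). For Nfe2l2 they were Enpp3 (0.99), Eif2s3y (0.98), a gene of the Y chromosome, and Sema3e (0.98). Eif2s3y had mean intensities of 25.7 ± 6.16 in CAG150 and 185 ± 19.6 in HM1 cells at day 6, and 19.0 ± 5.75 in CAG150 and 331 ± 20.2 in HM1 cells at day 4 (SD, n = 3 each). Among the members themselves Nfe2l2 correlated with Mt2 at 0.90 and with Mt1 at 0.86, and Gclm with Hmox1 at 0.91 and with Gclc at 0.87. With the tested genes downstream of NRF2, Nfe2l2 correlated at 0.71 (Txnrd1), 0.46 (Gclm), 0.45 (Hmox1), 0.41 (Gclc), 0.33 (Srxn1) and -0.17 (Nqo1).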

How the data were processed

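Affymetrix mouse arrays were hybridised with total RNA of 12 samples, and the titles gave the 4 groups, per the labels. Linear intensities were deposited, which the authors scaled so that the mean of an array without its top and bottom 2% of probe sets is 150, as read from the values. For their software, no name is given in the sources used. The 12 arrays, 3 per group, limit the precision.

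Of 45101 probe sets 64 controls were left out. By the platform annotation 34945 had 1 symbol, 932 several and 9160 none here. Symbols were matched by Entrez identifier to RefSeq's gene table of GRCm38.p6, which changed 0 symbols. Values were transformed as log2(intensity + 16). The probe set with the highest mean stood for a gene, and the 12280 genes above the probe sets' 40th percentile (4.8 on the log2 scale, an intensity of 11.9) were tested. A mean per group was fitted on all arrays with limma 3.58.1 (lmFit and eBayes) in R 4.3.3. P-values were adjusted by Benjamini-Hochberg over all genes tested and called under 0.05. The fit was tested on simulated data.

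Members, the 7 other pathway lists and the 7 marker lists were chosen with earlier results of these data known. All members are named. Of each other list up to 4 genes with the largest differences among those that passed are named, or 1 with the smallest p where none passed, and a gene so named may be given in the other comparisons. Alternatives were quantile normalization, other centrings, filters and pseudocounts, averaging each gene's probe sets, a trended prior, only the groups compared, a replicate block and leaving out each array.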

Additional observations from a re-analysis of the deposited data

Results flagged for a closer look

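For 1 of the 9 tested members and 3 of the 74 tested genes of related pathways the difference between the lines itself differed between day 6 and day 4, by the log2 interaction in the fit across all genes, in which 3.61% of all genes passed. It was -0.948 for Mt1 (adjusted p = 0.00503, lost with the mean of its probe sets at 0.196), -1.218 for Chac1 (adjusted p = 0.000717), -0.913 for Glrx (adjusted p = 0.0052) and 0.415 for Idh1 (adjusted p = 0.0397). For Mt1 this is a difference of folds. On the linear scale its line gap was similar at both days, with means of 205 in CAG150 and 1324 in HM1 cells at day 6. At day 4 the Mt1 means were 503 in CAG150 and 1621 in HM1 cells. Glrx, glutaredoxin, had mean intensities of 59.8 ± 1.47 in CAG150 and 72.1 ± 5.16 in HM1 cells at day 6 (SD, n = 3 each), and 109 ± 14.2 in CAG150 and 61.3 ± 8.90 in HM1 cells at day 4. Idh1, the cytosolic isocitrate dehydrogenase, had 2794 ± 38.2 in CAG150 and 2323 ± 47.4 in HM1 cells at day 6, and 1483 ± 59.4 in CAG150 and 1647 ± 31.8 in HM1 cells at day 4.

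The arrays of Idh2, its mitochondrial counterpart, separated the lines in opposite directions at the 2 days, but only the day 6 difference passed. All CAG150 arrays lay below the HM1 arrays at day 6 (619 ± 36.4 in CAG150 and 764 ± 57.1 in HM1 cells) and above them at day 4 (602 ± 35.4 in CAG150 and 555 ± 14.2 in HM1 cells). The log2 difference of Idh2 was -0.295 at day 6 (limma adjusted p = 0.0258) and 0.113 at day 4 (adjusted p = 0.409). For 19.8% of all genes every CAG150 array lay below every HM1 array at day 6. The share of all genes separated in opposite directions at the 2 days was not counted. The log2 interaction of Idh2, at -0.408, did not pass (adjusted p = 0.0897).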

How the results depend on the processing

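The lower values of Mt1, Mt2 and Nfe2l2 in CAG150 cells kept their direction and their call at both days under every alternative run, as did that of Gclm at day 6. No alternative used the dimmer Gclm probe set alone, which did not pass at day 6 (-0.079, limma adjusted p = 0.672). The log2 difference at day 6 ranged over -2.71 to -1.40 for Mt1, -1.92 to -1.66 for Mt2, -0.63 to -0.34 for Nfe2l2 and -0.63 to -0.32 for Gclm. No pairing by replicate number was visible, since same-numbered samples' deviations correlated between -0.133 and 0.122. These correlations cannot show whether a number marks a shared culture or day. With the replicate number as a block the members called stayed at 4, 4, 5, 7 and 1 for the line at day 6, the line at day 4, the day in CAG150, the day in HM1 and the interaction, and the genes called for the interaction were 396, against 443 without it. The interaction called 295 genes with no filter, and 269 to 364 when 1 array was left out, with the lowest count without CAG150 day 6 replicate 3. Of the members it called 2 with the filter at the 60th percentile and with a pseudocount of 64, and 0 with the mean of probe sets. That mean also turned the sign of Txnrd1 at day 4 (0.137) and of the uncalled interactions of Gclc (-0.041), Txnrd1 (-0.235) and Srxn1 (0.046). The uncalled day difference in CAG150 cells turned negative for Nqo1 with quantile normalization (-0.074), median centring (-0.046) and centring outside chromosomes 8, 11 and Y (-0.003), and likewise for Srxn1 (-0.104, -0.072 and -0.029). Srxn1 in HM1 cells had -0.010 with quantile normalization. Leaving out 1 array, values that changed sign and were not called ranged over -0.030 to 0.183 (Nqo1) and -0.124 to 0.169 (Srxn1) for the day in CAG150 cells, over -0.105 to 0.045 for Nqo1 between the lines at day 4, and over -0.125 to 0.130 (Gclc), -0.230 to 0.063 (Srxn1) and -0.251 to 0.005 (Hmox1) for the interaction. The causes were not tested. Signal over background limits Slc7a11, whose probe sets were below the filter.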
